A study of Mus musculus with 8 samples.

Results

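The semaphorins, plexins and neuropilins were taken as every protein-coding gene of the deposited table named Sema3 to Sema7 with a letter, Plxna to Plxnd with a number, or Nrp1 or Nrp2. This gave 31 of 55536 genes: 20 semaphorins, 9 plexins and 2 neuropilins. The values come from posterior palatal shelves, the paired outgrowths that become the back of the roof of the mouth, of mouse embryos at E14.5, dissected with epithelium and mesenchyme before they had elevated. Both groups carried Yapfl/fl and Tazfl/fl alleles. The 4 libraries labelled control list no Cre, and the 4 labelled mutant also carried Col2Cre, a recombinase under Col2a1 regulatory sequence, so only cells in which that sequence was active, and their descendants, can have lost either gene. The sources used here name no strain. Whether every library came from its own embryo is not stated, so p-values cover only the variation among these samples. The comparison asks how these genes differed when Yap and Taz were deleted ahead of shelf elevation.

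Semaphorins are guidance proteins that share a sema domain. Class 3 members are secreted, classes 4, 5 and 6 span the membrane, and class 7 is held by a GPI anchor. Plexins are their main receptors and signal through a cytoplasmic domain, so that ligand binding changes adhesion and the actin cytoskeleton. Most secreted class 3 semaphorins do not bind plexins directly and need a neuropilin, which also binds vascular endothelial growth factors. In the head these genes are known for the guidance of cranial nerves, neural crest cells and vessels, and for bone remodelling.

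YAP and TAZ act on DNA through TEAD factors, whose core motif is GGAATG, or CATTCC on the other strand, so the promoters of the members were searched for these letters. RefSeq windows of GRCm38.p6 with 250 bases before and 50 after each start were given for 26 of the 31 genes, 37 windows in all. The motif stood in 3 of the 37 windows (8.11%), against 14.7% of all 32851 windows of the same length. The matches are shown because they are the places in these windows where such a site could be read, with the motif in capitals and written 5′ to 3′ on the strand of the gene.
Plxnb1 (chr9:109095276-109095305, plus strand): tcccgcgggaccGGAATGcggggtcccgga
Plxnd1 (chr6:115995161-115995190, minus strand): gcgagaggaagaCATTCCaggagctggcca
Sema4a (chr3:88459011-88459040, minus strand): ctgagcgcctggCATTCCagggggagggaa
The motifs begin 148, 173 and 144 bases before the start for Plxnb1, Plxnd1 and Sema4a, whose log2 differences between mutant and control libraries were 0.10, -0.15 and -0.09. No binding was measured here, and the windows of Nrp2 and Sema4c held no match. The genes without a window, which were not searched, were Plxna1, Plxna4, Sema3b, Sema3f and Sema6a.

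Libraries were alike in depth, with 29025089 to 32437977 recovered reads each, and their normalised counts are reads divided by 1 size factor per library. Yap1 and Wwtr1, the gene for TAZ, had log2 differences between mutant and control libraries of -0.18 and -0.29 (limma adjusted p = 0.751 for both, exact permutation p = 0.0286 and 0.0571, where 0.0286 is the smallest that 4 against 4 allows). All 11 palatal mesenchyme markers were detected, among them the posterior shelf genes Tbx22, at 1033.1 to 1949.1 normalised counts, and Meox2, at 7676.6 to 10996.6. The anterior shelf gene Msx1 had 34.0 to 131.6 and Shox2, also an anterior gene, 387.0 to 1056.3. Summed osteogenic markers were 24463.9 to 46006.5 in controls and 6843.9 to 23344.5 in mutants, with Bglap listed at 0 in all libraries. The 14 epithelial markers all had higher means in mutants, while 11 of 14 endothelial and 10 of 11 chondrogenic markers had lower ones. The mean log2 levels of the epithelial, endothelial and chondrogenic lists overlapped between the groups. Mutant replicate 2 was the most extreme library in these lists, at 0.70, -0.42 and -0.998 relative to the control mean. In bulk tissue, fewer cells of a type and less RNA per cell cannot be told apart.

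**Figure D1:**
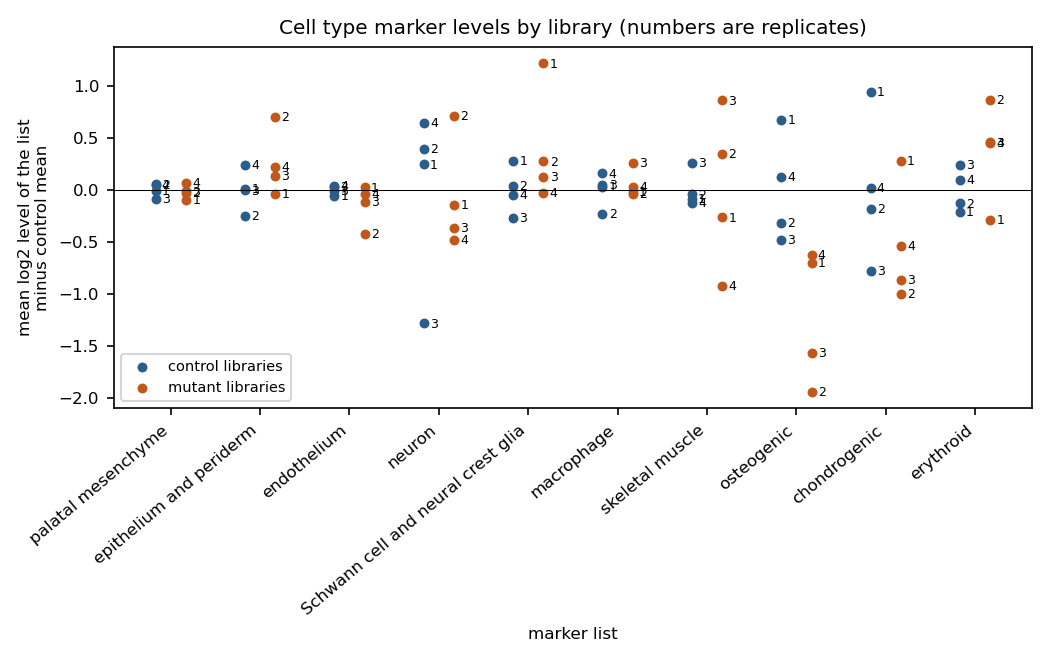
Mean log2 level of each cell type marker list (vertical axis, relative to the control mean) in the 4 control and 4 mutant libraries, with replicate numbers beside the points. Osteogenic levels were lower in every mutant library than in every control; control replicate 3 had the lowest neuron level (-1.29) and mutant replicate 1 the highest Schwann cell level (1.22).

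None of the 31 genes passed the limma test over all genes (lowest adjusted p = 0.581), where 0.024% of the 16647 genes tested did. All 31 were above the filter on low values. Without adjustment, 6 genes had a limma p below 0.05 (Plxna4, Sema4c, Sema6a, Nrp2, Sema3e and Sema4d), which is 19.4% of the members against 6.57% of all genes tested. DESeq2 on recovered reads called 1 member, Plxna4 (0.221% of all genes with an adjusted p), and edgeR called 0 (0.03% of all genes). Limma with the first number of the sample titles as a block also called Plxna4 only (0.036% of all genes). Control replicate 1 and mutant replicate 1 have title numbers of their own, so they do not enter the difference in that fit. Directions were even, with 16 lower and 15 higher means in mutants (median log2 difference -0.00028, beside -0.00015 over all genes tested). The median size of the difference regardless of sign was 0.12 for the members and 0.11 for all genes.

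Plxna4, Sema6a and Sema4c were the members whose control and mutant libraries did not overlap, the first and second lower and the third higher in mutants. That is 9.68% of members, against 3.77% of all genes tested, of which 1.91% were lower and 1.86% higher. Removing a library cannot make separate groups overlap, so these counts can only stay or grow when 1 is left out. No other member joined without control replicate 1, mutant replicate 2 or mutant replicate 3, where 6.62%, 5.72% and 6.61% of all genes had no overlap. Nrp2 joined them without control replicate 2 or mutant replicate 1, against 6.25% and 7.80% of all genes. Leaving out control replicate 3 raised the number to 9 members, while the share of all genes rose to 8.55%. Control replicate 3 held the highest of the 8 values for 15 of the 31 genes and the lowest for 0, and the 31 genes made up 0.385% of its reads, against 0.331% to 0.371% in the other libraries. Leaving out control replicate 4 or mutant replicate 4 gave 5 members, against 7.14% and 6.98% of all genes.

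**Figure D2:**
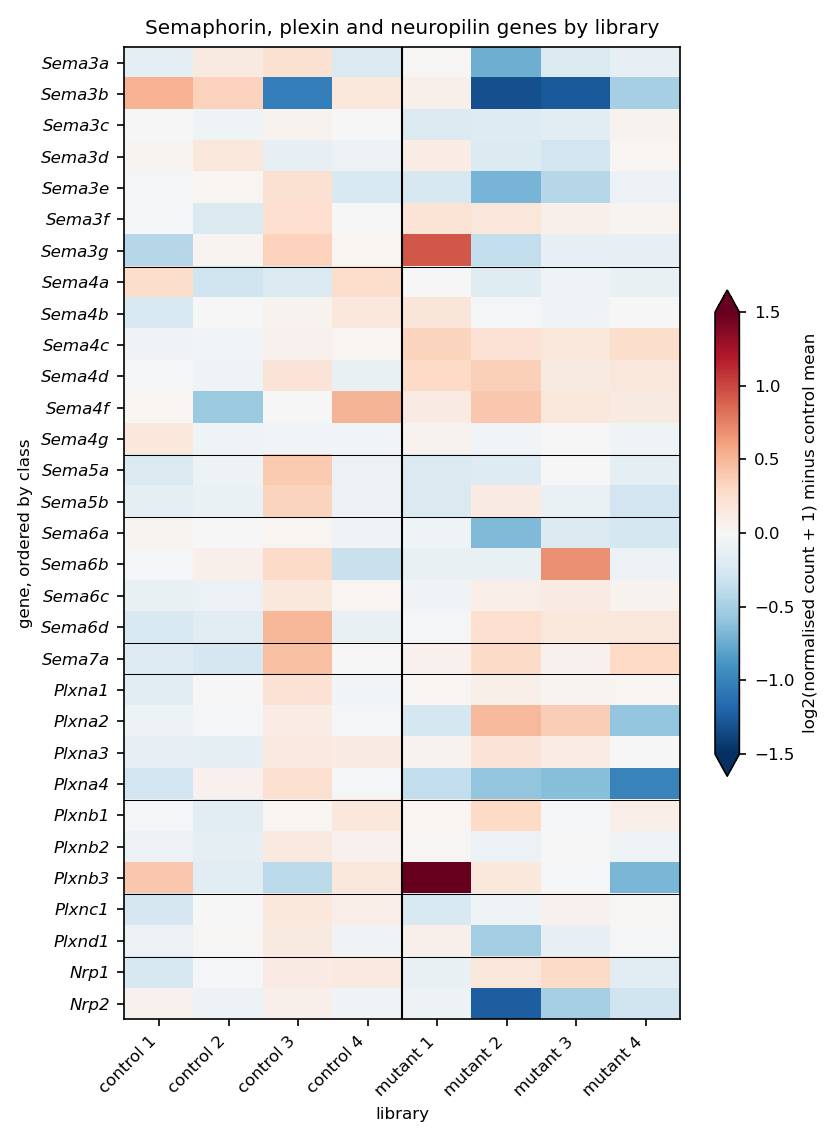
Each of the 31 genes (rows, by class) in the 8 libraries (columns), coloured by log2(normalised count + 1) minus the control mean. Plxna4 is below its control mean in all mutant libraries, mutant replicate 2 holds the lowest values of Nrp2, Sema3a and Sema3e, and control replicate 3 is red for most genes.

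Among the receptors, Plxna4 had the smallest p of the members, and the 21st smallest of all genes tested. Plexin A4 is a receptor of sensory and sympathetic axons that binds Sema6a directly and takes part in Sema3a signalling with neuropilin 1. Plxna4 (ENSMUSG00000029765, chromosome 6 from 32144268 to 32588192 in GRCm38 coordinates) had 817.8, 1045.5, 1186.0 and 986.0 normalised counts in control replicates 1 to 4. In mutant replicates 1 to 4 it had 773.1, 660.6, 643.5 and 500.7. All mutant values lay below all control values, although control replicate 1 and mutant replicate 1 came close to each other. Means were 1009 ± 152 for controls and 644 ± 112 for mutants (SD, n = 4 each), a difference of -36.1% of the control mean. The log2 difference was -0.65 (SE 0.144, 95% interval -0.96 to -0.34, limma adjusted p = 0.581). It ranged from -0.75 to -0.53 when 1 library was left out. DESeq2 gave -0.65 with an adjusted p of 0.0165, and edgeR -0.64 with an adjusted p of 0.529.

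Plxna4 is expressed by neurons, so the neuron and glia markers are given beside it. The mean neuron level was lowest in control replicate 3 (-1.29 on the log2 scale relative to the control mean), the library with the highest Plxna4 value. It was highest in mutant replicate 2 (0.72), whose Plxna4 value lay below every control. In the other 6 libraries it was 0.25, 0.39 and 0.65 in control replicates 1, 2 and 4 and -0.15, -0.37 and -0.48 in mutant replicates 1, 3 and 4. Plxna4 was lower in each mutant than in each control over all 8 libraries, the neuron level only among those 6. Mutant replicate 4 was the lowest of the 6 in both. Those 6 leave out control replicate 3 and mutant replicate 2, which went the other way, so their agreement follows in part from that choice and is no test of a link. Over all 8 libraries the neuron levels of the groups overlapped, with a mean log2 difference of -0.07. Summed over the 13 neuron markers, of which 7 had lower means in mutants, the counts ran from 5480.6 to 11097.3 in controls and from 6702.9 to 13160.4 in mutants. The Schwann cell and glia list summed to 10163.3 to 12921.8 in controls and 12174.3 to 16908.5 in mutants, with 8 of 10 means higher in mutants. The part of the neuron, glia and osteogenic lists in the Plxna4 difference was not tested. The antisense gene Plxna4os3, which shares 110 bases of exon with Plxna4, was listed at 0 in all libraries.

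The other class A plexins, the signalling partners of neuropilins for secreted semaphorins, showed no such pattern. Plxna1 had a log2 difference of 0.05 (95% interval -0.11 to 0.21), Plxna3 one of 0.09 (-0.09 to 0.27) and Plxna2 one of -0.00028 (-0.42 to 0.42). Plxna2 spread widely among mutants, with 1746.5, 2935.9, 2694.7 and 1391.8 normalised counts against 1990.1 to 2271.5 in controls. Mutant replicates 2 and 3 were above all controls for Plxna2 and mutant replicates 1 and 4 below them. Per kilobase of merged exons, Plxna4 made up 3.84% to 4.49% of the summed class A plexin level in controls and 2.16% to 3.25% in mutants. It was the lowest of the 4 class A plexins in level, at 71.5 ± 10.8 normalised counts per kilobase (SD, n = 4 controls), against 1175 ± 136 for Plxna1.

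Class B plexins bind class 4 and 5 semaphorins. Plxnb2 had the highest level of all members, 2226 ± 202 normalised counts per kilobase in controls (SD, n = 4), and a log2 difference of -0.03 (95% interval -0.18 to 0.11). Plxnb1, the receptor of Sema4d, had a difference of 0.10 (-0.08 to 0.28). Plxnb3 was the least abundant member, with 55.4 to 98.0 normalised counts in controls and 311.2, 82.3, 72.4 and 45.5 in mutant replicates 1 to 4. Its log2 difference of 0.38 rested on mutant replicate 1 and was -0.19 without that library, which also had the highest Schwann cell and glia level (1.22). The part of glia in the Plxnb3 values was not tested. Plxnd1, the endothelial receptor that binds Sema3e without a neuropilin, had 9598.2 to 11163.4 in controls and 7108.8 to 10721.0 in mutants, a log2 difference of -0.15 (-0.38 to 0.09). Without mutant replicate 2, the lowest library for Plxnd1 and for the endothelial markers (-0.42), it was -0.02. Mutant replicate 2 was also the lowest library in the osteogenic (-1.94) and chondrogenic (-0.998) lists. In the epithelial (0.70) and erythroid (0.87) lists it was the highest. The part of these lists in the Plxnd1 values was not tested. Plxnc1, the receptor of Sema7a, had a difference of -0.05 (-0.28 to 0.18).

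**Figure D3:**
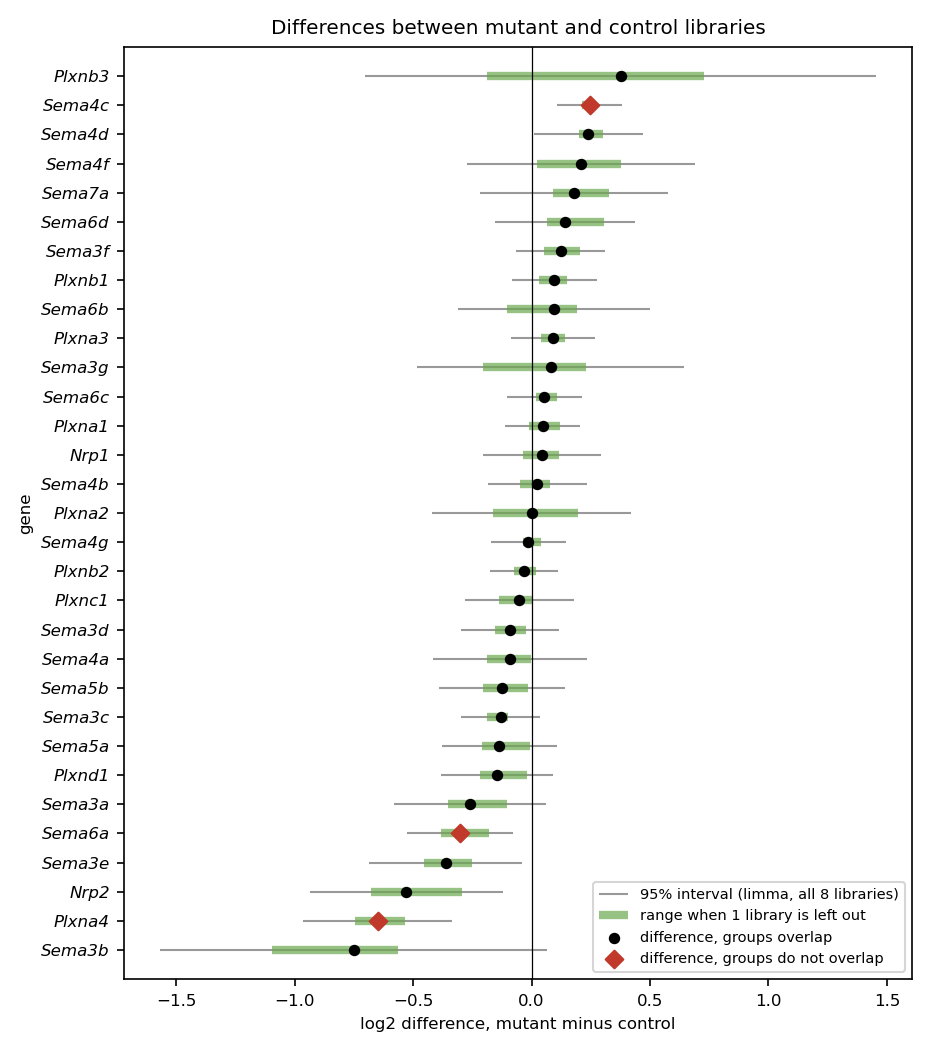
Log2 difference between mutant and control libraries (horizontal axis) for the 31 genes, ordered by size. Grey lines are 95% limma intervals, green bars the range when 1 library is left out, and red diamonds mark Plxna4, Sema6a and Sema4c, whose groups did not overlap.

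Of the 2 neuropilins, Nrp2 had a lower mean in mutants and Nrp1 did not. Neuropilin 2 is the co-receptor for Sema3f and for lymphatic growth factors, neuropilin 1 that for Sema3a and VEGF-A. Nrp2 (ENSMUSG00000025969, chromosome 1 from 62703285 to 62818695) had 11730.0, 10564.2, 11797.4 and 10817.2 normalised counts in control replicates 1 to 4 and 10648.0, 4773.0, 7910.5 and 9092.0 in mutant replicates 1 to 4. The groups overlapped only through mutant replicate 1, which was above control replicate 2. Means were 11227 ± 629 for controls and 8106 ± 2489 for mutants (SD, n = 4 each). The log2 difference was -0.53 (SE 0.186, limma adjusted p = 0.754), and -0.29 without mutant replicate 2. Mutant replicates 2 and 3, the lowest in Nrp2, were also the lowest mutants in the osteogenic (-1.94 and -1.57), chondrogenic (-0.998 and -0.866) and endothelial (-0.42 and -0.11) lists. In the skeletal muscle list they were the highest mutants (0.35 and 0.86), so they differed from the other mutants in several lists. They share the first title number 3602 with control replicate 3, and the labels do not say what that number marks. The mutants stood in the same order in Nrp2 as in the chondrogenic and endothelial lists, but the controls did not. Control replicate 3 had the highest Nrp2 value and the lowest osteogenic (-0.48) and chondrogenic (-0.78) levels of the controls. The part of these lists in the Nrp2 difference was not tested.

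Nrp1 (ENSMUSG00000025810, chromosome 8 from 128358604 to 128503363) had 1930.5, 2232.5, 2489.0 and 2536.6 normalised counts in control replicates 1 to 4. In mutant replicates 1 to 4 it had 2118.9, 2572.5, 2787.4 and 2033.0. These groups overlapped widely, and the log2 difference was 0.05 (95% interval -0.20 to 0.29). The ratio of Nrp2 to Nrp1 per kilobase was 5.02, 3.91, 3.92 and 3.52 in controls and 4.15, 1.53, 2.34 and 3.70 in mutants. Only mutant replicates 2 and 3 lay below all controls in this ratio, which depends on the exon length used: with the longest transcript of each gene it was 2.31 to 3.29 in controls and 1.01 to 2.72 in mutants.

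**Figure D4:**
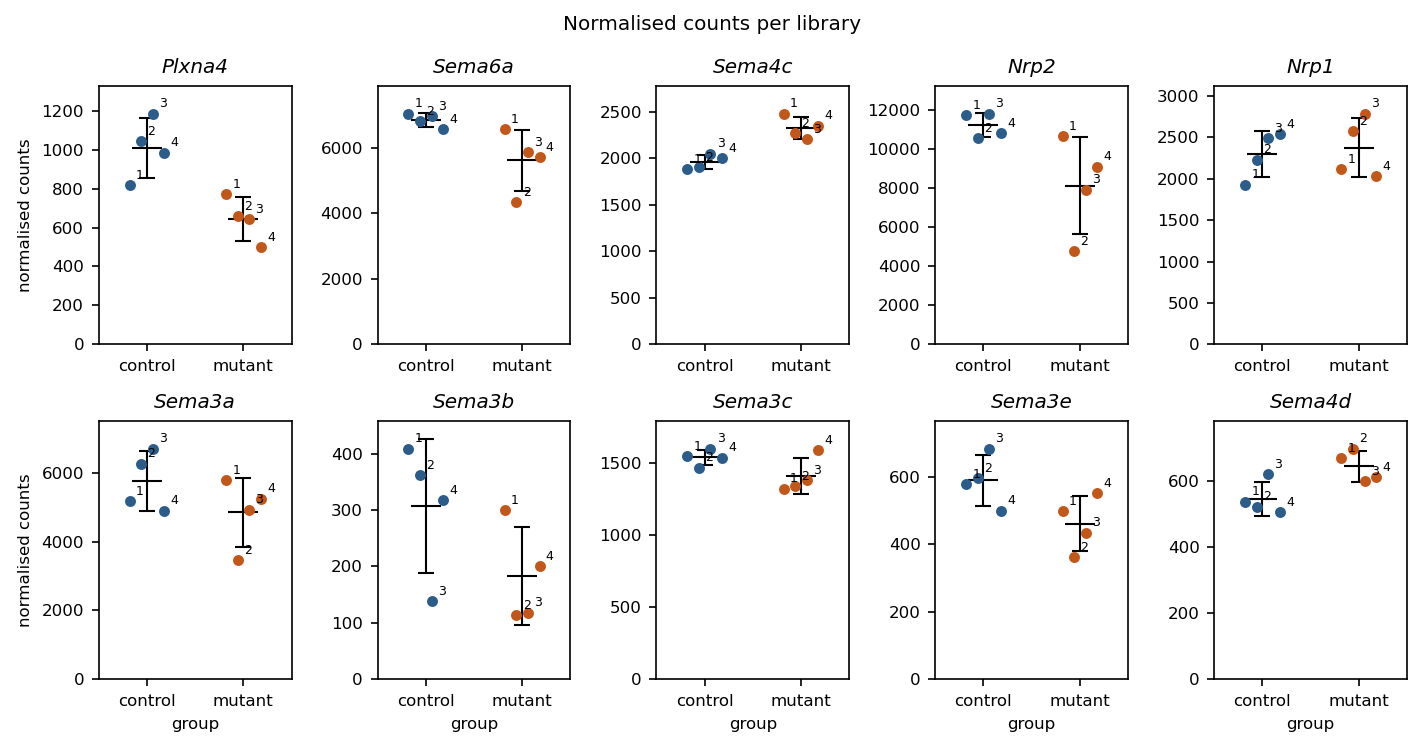
Normalised counts (vertical axis from 0) of 10 members in control and mutant libraries. Points are libraries with their replicate numbers, bars the mean and SD over 4 libraries; Plxna4 and Sema6a are lower and Sema4c higher in all mutant libraries, and mutant replicate 2 sets the low end of Nrp2 and Sema3a.

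Secreted class 3 ligands had lower means in mutants for 5 of 7 genes (median log2 difference -0.13), and no gene was without overlap. Sema3a, the axon repellent that signals through neuropilin 1 and also acts on bone cells, had 5166.5, 6263.2, 6705.6 and 4901.4 normalised counts in control replicates 1 to 4 and 5788.8, 3448.9, 4928.3 and 5245.4 in mutant replicates 1 to 4. Only mutant replicate 2 was below all controls for Sema3a. The mean log2 difference of Sema3a was -0.26 (SE 0.147, limma adjusted p = 0.774), and -0.11 without that library.

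Sema3e, the ligand of plexin D1 in vessel patterning, had 577.1, 595.5, 683.3 and 498.9 normalised counts in control replicates 1 to 4. Its mutant values were 496.9, 360.6, 434.2 and 551.2. Mutant replicate 4 lay among the controls and the other mutants below them, with mutant replicate 1 just under control replicate 4. The log2 difference was -0.36 (SE 0.148, limma adjusted p = 0.754).

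Sema3b, a neuropilin ligand, had the largest mean difference of the members, at -0.75 on the log2 scale (SE 0.374, limma adjusted p = 0.769), and one of the widest spreads. Its control values were 408.9, 362.2, 138.5 and 317.2 normalised counts and its mutant values 299.5, 113.6, 117.7 and 200.3. Control replicate 3 fell inside the mutant range, and mutant replicate 1 lay close to control replicate 4. The difference was -1.10 without control replicate 3. Osteogenic levels relative to the control mean were 0.68, -0.32, -0.48 and 0.13 in the controls and -0.70, -1.94, -1.57 and -0.62 in the mutants, so the lowest Sema3b values of each group stood in the libraries with the lowest osteogenic levels. The same libraries, control replicate 3 (-0.78) and mutant replicate 2 (-0.998), were the lowest of their groups in the chondrogenic list. The part of these lists in the Sema3b values was not tested.

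Sema3c, which binds both neuropilins and acts in neural crest migration, had 1547.2, 1467.2, 1599.5 and 1536.9 normalised counts in controls and 1321.5, 1341.1, 1382.6 and 1590.0 in mutants. Mutant replicates 1 to 3 were below all controls and mutant replicate 4 was above all but control replicate 3. The mean log2 difference of Sema3c was -0.13 (SE 0.0762, limma adjusted p = 0.781). Sema3d, a ligand in vascular and neural crest patterning, had a difference of -0.09 (95% interval -0.30 to 0.12). Sema3f, the neuropilin 2 ligand, had one of 0.12 (-0.07 to 0.31), and no mutant value (5531.7 to 6190.4 normalised counts) left the control range of 4619.3 to 6366.0. Sema3g, expressed in arterial endothelium, had 304.5 to 520.2 in controls and 781.8 in mutant replicate 1 against 316.1 to 375.3 in the other mutants. The log2 difference of Sema3g was 0.08, and -0.20 without mutant replicate 1.

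Sema6a was the transmembrane ligand with lower values in all mutants. It binds plexins A2 and A4. Of these receptors, Plxna4 was without overlap between groups, while Plxna2 had a log2 difference of -0.00028 (95% interval -0.42 to 0.42). Sema6a (ENSMUSG00000019647, chromosome 18 from 47235598 to 47368870) had 7040.6, 6805.0, 6957.0 and 6571.8 normalised counts in control replicates 1 to 4. In mutant replicates 1 to 4 it had 6558.0, 4330.0, 5873.8 and 5706.7. The gap between the groups was narrow, since mutant replicate 1 lay just below control replicate 4. Controls varied little for Sema6a, with a coefficient of variation of 3.01%, against 16.6% in mutants. The log2 difference was -0.30 (SE 0.102, limma adjusted p = 0.754), and -0.18 without mutant replicate 2. Endothelial levels relative to the control mean were 0.02, -0.42, -0.11 and -0.04 in mutant replicates 1 to 4. In control replicates 1 to 4 they were -0.059, 0.027, -0.0055 and 0.038, the reverse of the order of the Sema6a values. Mutant replicates 3 and 4 also stood in opposite order in Sema6a and in this list. The part of endothelial cells in the Sema6a values was not tested.

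The other class 6 genes, which also signal through class A plexins, had small positive differences. Sema6c was at 0.05 (95% interval -0.10 to 0.21), Sema6d at 0.14 (-0.15 to 0.44) and Sema6b at 0.09 (-0.31 to 0.50). Sema6d was 0.31 without control replicate 3, which had 4639.4 normalised counts against 2815.4 to 3050.2 in the other controls. Sema6b had 1195.4 in mutant replicate 3 and 684.6 to 700.9 in the other mutants, and its difference was -0.10 without that library. Mutant replicate 3 also had the highest skeletal muscle level, at 0.86. Control replicate 3 was the highest control for muscle (0.26) and Sema6b (909.0), while mutant replicate 2, at 0.35 in muscle, had 686.2. The part of muscle in the Sema6b values was not tested.

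Sema4c was the member with higher values in all mutants. It is a transmembrane ligand of plexin B2. Sema4c (ENSMUSG00000026121, chromosome 1 from 36548639 to 36558349) had 1883.7, 1903.6, 2049.9 and 2005.3 normalised counts in control replicates 1 to 4 and 2479.7, 2270.5, 2202.7 and 2351.6 in mutant replicates 1 to 4. The lowest mutant was above the highest control. The means were 1961 ± 79.9 (SD, n = 4) and 2326 ± 119 (SD, n = 4), 18.6% higher in mutants, and the log2 difference was 0.25 (SE 0.0631, 95% interval 0.11 to 0.38, limma adjusted p = 0.751). Leaving out 1 library gave 0.21 to 0.27. The opposite-strand gene D430040D24Rik covers 7.27% of the Sema4c exon bases, and since the strand setting of the counting is not given, reads there cannot be told apart. That gene itself had 192.5 to 271.5 normalised counts in controls and 216.1 to 284.9 in mutants.

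Sema4d, the plexin B1 ligand that acts between osteoclasts and osteoblasts, also had a higher mean in mutants. Its values were 537.7, 522.3, 620.7 and 504.8 normalised counts in controls and 669.0, 698.5, 599.2 and 611.9 in mutants. Only control replicate 3 reached into the mutant range for Sema4d. The log2 difference was 0.24 (SE 0.106, limma adjusted p = 0.754). The remaining class 4 genes ran from -0.09 for Sema4a (95% interval -0.41 to 0.23) to 0.21 for Sema4f (-0.27 to 0.69), with Sema4b at 0.02 and Sema4g at -0.01.

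Class 5 semaphorins carry thrombospondin repeats beside the sema domain. Sema5a was at -0.14 (95% interval -0.38 to 0.11) and Sema5b at -0.12 (-0.39 to 0.14). Control replicate 3 was the highest library for both genes, and without it both differences were -0.01. Sema7a, the GPI-anchored ligand of plexin C1 and integrins, had 194.3 to 317.0 normalised counts in controls and 242.2 to 285.2 in mutants. Its log2 difference was 0.18 (-0.22 to 0.57), and 0.33 without control replicate 3.

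Levels per kilobase of merged exons placed the genes in an order within each class that can be read across genes. Among class 3 ligands, Sema3f was highest (1039 ± 139 normalised counts per kilobase, SD, n = 4 controls), followed by Sema3d (478 ± 44.4), Sema3a (415 ± 62.3) and Sema3c (215 ± 7.62). The control ranges of Sema3d and Sema3a overlapped, so their order is not settled, and it turned around with the longest transcript. Sema3g, Sema3b and Sema3e followed at 91.6 ± 19.4, 64.2 ± 24.7 and 63.4 ± 8.15, with overlapping ranges. Sema6a led its class at 780 ± 23.4, above Sema6c at 473 ± 41.2. Sema4c led the class 4 genes at 427 ± 17.4 and Sema5a the class 5 genes at 453 ± 90.2. Nrp2 was at 948 ± 53.1 and Nrp1 at 235 ± 28.5, and their control ranges did not overlap. Plxnd1 was the second highest plexin, with control libraries from 1315 to 1529.

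**Figure D5:**
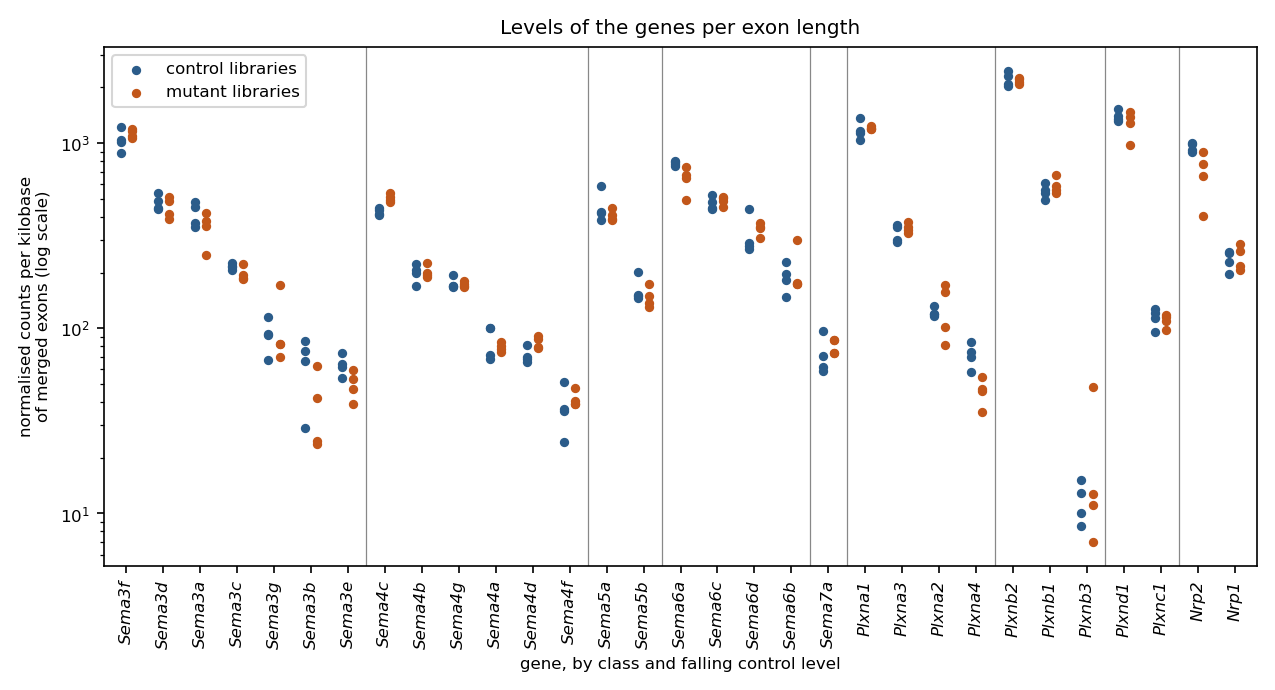
Normalised counts per kilobase of merged exons on a log axis for the 31 genes, by class and falling control level, with 4 control and 4 mutant points each. Plxnb2, Plxnd1, Plxna1 and Sema3f are highest and Plxnb3 is lowest.

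Other genes of the pathway were followed from a list of 81, of which 80 were tested and Timd2 was listed at 0. None passed the limma test over all genes (lowest adjusted p = 0.754), and 39 had lower and 41 higher means in mutants (median log2 difference 0.000794). Groups did not overlap for 3 of the 80 genes, 3.75% of them beside 3.77% of all genes tested. Without adjustment, 6 had a limma p below 0.05, 7.50% of them beside 6.57% of all genes. Both shares were near those of all genes, and edgeR and DESeq2 also called 0 of the 80.

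Receptor partners of neuropilins and plexins divided into 9 lower and 10 higher. Flt1 and Kdr, the VEGF receptors that pair with neuropilins in endothelium, had log2 differences of -0.34 (SE 0.145) and -0.25 (SE 0.118). Of the 14 endothelial markers, which include Kdr itself, 11 had lower means in mutants. The part of endothelial cells in these differences was not tested. Trem2, which forms a receptor complex with plexin A1 in myeloid cells, had 31.9, 39.0, 31.8 and 3.9 normalised counts in controls and 71.0, 55.8, 73.3 and 61.7 in mutants. Cd72, a Sema4d receptor of B cells, had 18.1 to 30.4 and 33.1 to 51.1. Neither gene's groups overlapped, and both were low; the macrophage markers summed to 4193.7 to 4979.0 in controls and 4138.7 to 5267.9 in mutants.

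Cytoplasmic transducers, which link plexins to the actin cytoskeleton, had lower means for 21 and higher means for 27 of 48. Limk2, a kinase that inactivates cofilin, had a log2 difference of 0.22 (SE 0.100), Mical2, an actin-oxidising enzyme, at 0.31 (SE 0.138) and Gipc1, a neuropilin 1 adaptor, at 0.13 (SE 0.0598). The 5 growth factors shared with neuropilins were near 0, from -0.06 for Vegfd to 0.09 for Pgf, with Vegfc at -0.03 and Vegfb at 0.03. Of the 8 proprotein convertases and shedding proteases, which cut semaphorins, 6 had lower means, with Pcsk6 at -0.21 (SE 0.109), Adam17 at -0.10, Mmp14 at -0.06 and Furin, the convertase of class 3 semaphorins, at 0.07.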

How the data were processed

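RNA of 4 control and 4 mutant libraries was compared. Normalised counts (a signal value) were deposited by the authors, reads per gene divided by 1 size factor per library (0.939 to 1.06) and rounded to 1 decimal. The submitters' processing notes list STAR 2.7.2 and DESeq2. No source used here names the counter, its strand setting, the annotation or the build. Whole reads were recovered for 99.7% to 100% of values between 50 and 5000 (tolerance 0.05 reads times the size factor). The deposited log2 values are the authors' variance-stabilised values, used in 1 alternative. Gene positions equalled the GRCm38 annotation for 95.2% of gene IDs and 27 of 31 members; exon lengths come from that annotation.

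Values were taken as log2(normalised count + 1), and limma 3.58.1 (R 4.3.3, variance prior following the mean level) tested mutant against control, two-sided, over the 16647 genes with at least 10 normalised counts in at least 4 libraries, with Benjamini-Hochberg adjustment at 0.05. Folds are on that scale. The script was tested on simulated data. Alternatives were other pseudocounts, filters, scalings and variances, edgeR 4.0.16, DESeq2 1.42.0, the first title number as a block, and leaving out each library; overlap counts without 1 library were added after seeing the data. Per-library values were given for members past the threshold, without overlap, the 6 others with the smallest p, and both neuropilins; of pathway genes, up to 4 per group with the smallest p, of which the transducer with the smallest p is not reported here. Members and lists were chosen with earlier results of these data known. Counts cover whole genes, and depth limits only low genes such as Plxnb3.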

Additional observations from a re-analysis of the deposited data

Results flagged for a closer look

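In 7 of the 66 groups of 4 libraries examined for the members, Yap1 and Wwtr1, 1 library stood apart from the other libraries of its group by Dixon's criterion for the gap to the nearest library, which chance gives in about 1 of 20 groups. Mutant replicate 1 was apart for Plxnb3, with 311.2 normalised counts against 45.5 to 82.3 in the other mutants, and for Sema3g, with 781.8 against 316.1 to 375.3. Mutant replicate 3 was apart for Sema6b, with 1195.4 against 684.6 to 700.9, and mutant replicate 2 for Sema4f, with 251.8 against 206.2 to 213.2. Among controls, replicate 3 was apart for Sema5b, with 1423.0 against 1028.6 to 1066.5, and for Sema6d, with 4639.4 against 2815.4 to 3050.2. Control replicate 1 was apart for Sema4g, with 1682.4 against 1439.9 to 1466.2.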

How the results depend on the processing

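Of the 31 members, 20 had the same direction in all 20 other fits with a test, and 1 of them, Plxna4, passed the threshold in any. The number of members past the threshold was 0 when any 1 library was left out and 1 with DESeq2. With a replicate block on the leading number of the titles it was 1 as well (Plxna4, log2 difference -0.94, limma adjusted p = 0.0437). Control replicate 1 (3606) and mutant replicate 1 (3621) share their numbers with no other library, so this difference rests on titles with 2057 and 3602. For Plxna4 they held the closest control and mutant values, 817.8 and 773.1 normalised counts. Correlations between libraries were taken on deviations from the group mean. Between groups they were -0.008 to 0.100 for titles with the same number and -0.085 to 0.076 for titles with different numbers. The highest, 0.100, was that of control replicate 3 and mutant replicate 3, both 3602. These values do not settle what the numbers mark, and the main fit did not pair the libraries. Within a group such deviations sum to 0, so these correlations are negative on average whatever the numbers mark. Mutant replicates 2 and 3 (both 3602) had the highest correlation of the mutant pairs, at -0.23. Control replicates 2 and 4 (both 2057) had the lowest of the control pairs, at -0.359. The count over all genes went from 4 to 31 with DESeq2, to 0 with robust variances and to 0 to 11 without 1 library. Members without overlap numbered 3 to 9 without 1 library.

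With the block, log2 differences changed sign for Nrp1 (-0.0608), Plxna1 (-0.0501), Plxnb3 (-0.11), Sema3g (-0.38), Sema4a (0.0018), Sema4b (-0.0907) and Sema4g (0.0094), and the pathway median was -0.0396. Plxna2, near 0, was 0.0032 with trimmed mean of M-values scaling, 0.012 with stabilised values, 0.0081 with library weights, 0.0663 with edgeR and 0.0636 with DESeq2. Leaving out 1 library gave ranges across 0 for Nrp1 (-0.0351 to 0.117), Plxna1 (-0.0119 to 0.119), Plxna2 (-0.16 to 0.20), Plxnb2 (-0.0761 to 0.0179), Plxnb3 (-0.19 to 0.73), Plxnc1 (-0.14 to 0.0045), Sema3g (-0.20 to 0.23), Sema4b (-0.0505 to 0.0777), Sema4g (-0.0363 to 0.0385) and Sema6b (-0.10 to 0.19). Within the titles that start with 3602 (1 control and 2 mutants) the member median was -0.16, Yap1 -0.29 and Wwtr1 -0.50. Plxna4 was -0.86 there and -1.02 within those that start with 2057, and Nrp2 was -0.94 and -0.23. With the longest transcript as length the median level per kilobase was 332 in place of 215. The causes of these changes were not tested.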
